A study of Rosa rugosa with 4 samples.

Results

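Leucine-rich repeat (LRR) receptors were followed across leaf and petal of Rosa rugosa, the shrub rose valued for scented flowers. These contigs, the transcripts assembled from the reads, were chosen by annotation alone. A contig was taken if its first database hit was to Fragaria, Rosa, Prunus, Malus or Pyrus, if it was at least 300 nt long, and if the hit text named an LRR receptor-like or leucine-rich repeat receptor kinase, receptor-like protein 12, a receptor protein kinase or brassinosteroid insensitive. Lectin, cysteine-rich and wall-associated hits were to be left out by the words of the hit text, and none was met. The rule also took receptor protein kinases whose name holds no leucine-rich repeats, such as TR121187|c0_g1_i1 (putative receptor protein kinase ZmPK1, 2 fragments). The rule gave 140 of the 65535 contigs analysed here. The hit was to Fragaria (strawberry) for 116 of them, to Prunus for 15, to Pyrus for 5, to Malus for 4 and to Rosa for 0. The same words were found in 213 shorter contigs, which were not taken. Of the 14 contigs of 300 to 309 nt, 13 were above 0 in some library, with a median of 2.5 fragments, and of the 11 contigs of 290 to 299 nt just outside the rule, 10 were above 0, with a median of 3 fragments.

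Total RNA of untreated, greenhouse-grown roses was sequenced after removal of ribosomal RNA in 4 libraries, leaf 1, leaf 2, petal 1 and petal 2. No label gives a genotype, a plant age or a plant for each library, so the spread between the 2 libraries of a tissue may be between plants or technical. Values are FPKM, fragments scaled by contig length and by mapped fragments. Depth, inferred from what 1 fragment is worth in FPKM, was 18600000 to 26700000 mapped fragments per library, and the contigs analysed here held 0.798% to 2.93% of them. In a contig of 300 nt, 1 fragment was worth 1.48 to 2.42 FPKM, while in a contig of 1000 nt it was worth 0.0548 to 0.0756 FPKM. A high FPKM on a short contig can therefore rest on few fragments, and fragments are given beside FPKM below.

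LRR receptor kinases sit in the plasma membrane with the repeats outside the cell and a serine/threonine kinase inside. They bind peptides, hormones or microbial molecules and pass the signal on by phosphorylation, often together with a smaller LRR coreceptor. Receptor-like proteins have the repeats and no kinase, and depend on a partner kinase. In leaves these families are best known for the perception of microbes, and in meristems and flowers for peptide signals that set stem cell number and cell fate.

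As a check of the tissue labels, the summed FPKM of glycine cleavage contigs, part of photorespiration, was 1422 and 1030 in the leaf libraries and 2.91 and 3.08 in petal 1 and petal 2. NUDX1, the scent hydrolase of rose, summed to 0.74 and 0.09 in the leaf libraries but 358 and 36.4 in petal 1 and petal 2. Flavonoid 3-O-glucosyltransferase contigs were also higher in both petal libraries, on 24 fragments. The other marker words overlapped between the tissues (chlorophyll a-b binding, photosystem, anthocyanidin, germacrene) or had 0 contigs here (the small subunit of ribulose bisphosphate carboxylase). Other organisms moved with the libraries. Of all fragments in the table, grey mould hits took 27.9% for petal 2 and at most 0.0763% in the other libraries. Aphid hits took 6.46% and 3.43% in petal 1 and petal 2, against 0.280% and 0.367% in leaf 1 and leaf 2. Leaf-spot fungus hits took 4.02% and 2.38% in leaf 1 and leaf 2, against 0.0125% and 0.162% in petal 1 and petal 2. Their part in the values of the receptors was not tested.

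The receptor contigs were short and low. Their median length was 371 nt (300 to 2168 nt) and only 3 were over 1000 nt long. They hit 99 distinct genes, 74 by a single contig and 25 by 2 to 6 contigs, so that several contigs can be pieces of the same gene. The match was at an e-value of at most 1e-50 for 63 contigs and above 1e-10 for 14, for which the receptor's name is less certain. In all, 129 contigs were above 0 in some library and 11 were listed at 0 in all 4. The 140 contigs held 2239 fragments over the 4 libraries, with a median of 6 fragments. At least 20 fragments were found on 20 of them (14.3%), which held 68.2% of all the receptor fragments, against 19.9% of the 5788 plant-hit contigs of at least 300 nt. The median of mean FPKM over the contigs above 0 was 0.775, and 0.770 over those plant-hit contigs.

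The summed level of the receptors overlapped between the tissues. Summed FPKM was 242 and 178 for leaf 1 and leaf 2 and 252 and 234 for petal 1 and petal 2, or 210 ± 45.4 in leaf and 243 ± 12.7 in petal (SD, n = 2 each). The petal libraries lay 1.16-fold above the leaf libraries, and leaf 1 was above petal 2, so the groups overlapped (exact two-sided permutation p = 0.667, where 2 libraries against 2 cannot give less than 0.3333). Rescaled to equal fragments on plant-hit contigs per library, the ratio was 1.02, and rescaled to an equal sum of FPKM it was 0.843. Without the most abundant contig, TR102005|c0_g1_i1, and without rescaling, the ratio was 0.930. As a share of the fragments on plant-hit contigs, leaf 1 gave receptors 0.369% (Wilson 95% interval from 0.342 to 0.398%) and leaf 2 gave 0.334% (from 0.303 to 0.367%). Petal 1 gave 0.317% (from 0.292 to 0.344%) and petal 2 gave 0.420% (from 0.388 to 0.456%). The highest and the lowest share were thus both in petal. Intervals cover counting error only. In these bulk samples fewer cells of a type and less RNA per cell cannot be told apart.

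**Figure D1:**
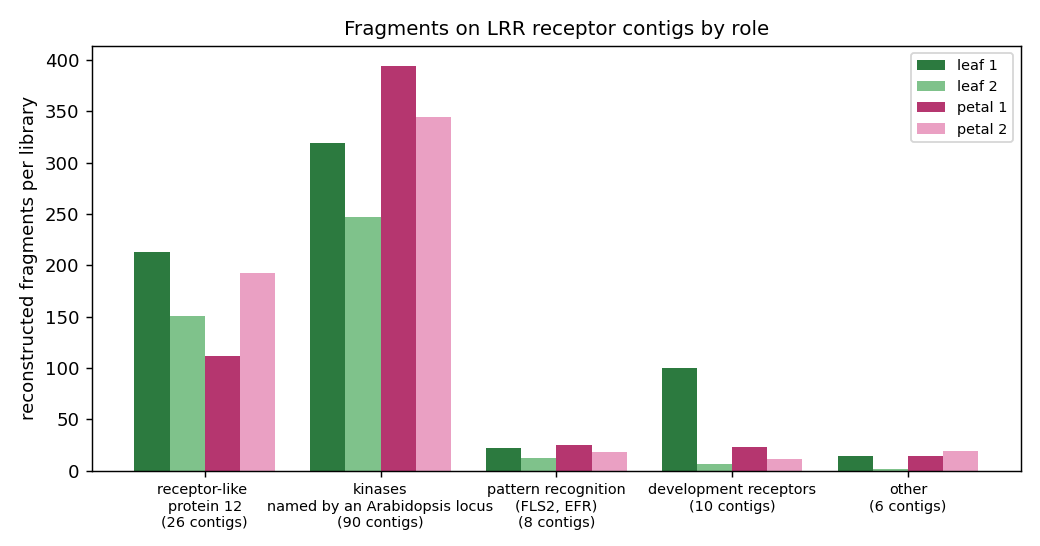
Fragments on the 140 LRR receptor contigs per library (y axis, fragments reconstructed from FPKM), by role of the hit (x axis, with the number of contigs), not adjusted for the depth of the libraries. Kinases named by an Arabidopsis locus held the most fragments in each library, 247 to 394, and the development receptors held 100 in leaf 1 and 7 to 23 in the other libraries.

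By role, 90 contigs hit kinases that the hit text names by an Arabidopsis locus number, and 26 hit receptor-like protein 12. A further 10 hit receptors of development, 8 hit the microbe receptors FLS2 or EFR, and 6 hit other receptors. None of the 140 contigs hit the brassinosteroid receptor BRI1 or its coreceptor BAK1. Contigs outside the rule were given no role, and the table is a part of the assembly, of which the rest was not analysed here. The locus kinases were led by At3g47570 with 21 contigs on 14 hit genes, At1g35710 with 14 contigs on 7 and At4g08850 with 9 contigs on 8. Fragments on all locus kinases were 319, 247, 394 and 344 for leaf 1, leaf 2, petal 1 and petal 2. Their summed FPKM was 152, 115, 157 and 114 in that order, and the tissues overlapped. Fragments on receptor-like protein 12 were 213, 151, 112 and 193 in the same order. In summed FPKM, which weighs short contigs more, this group was at 49.7 and 53.9 in leaf 1 and leaf 2 but 64.7 and 112 in petal 1 and petal 2, of which TR102005|c0_g1_i1 alone made up 54.5 and 78.0 in petal.

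Whether single receptors differed between petal and leaf was asked with limma, first over the 2157 transcripts whose mean and whose SD both reached 10 FPKM. Limma called 24 of them (1.11%) at an adjusted p under 0.05. A single receptor passed this filter, TR102005|c0_g1_i1, and it was not called (limma adjusted p = 0.515). Among the 1211 plant-hit contigs with at least 20 fragments, limma called 1 (0.0826%), which was not a receptor. Of the 20 receptors tested there, 0 were called, while 5 had an unadjusted limma p under 0.05, a level that 200 of all 1211 contigs (16.5%) passed. In limma-voom 0 receptors were called and 4 passed that level, as did 92 of the 1211 contigs (7.60%). In the limma fit without voom, the lowest adjusted p of the 20 receptors was 0.227.

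In the counts of libraries that did not overlap, 7 of the 20 receptors had both petal libraries above both leaf libraries, 6 had both leaf libraries above and 7 overlapped. Over all 1211 plant-hit contigs with at least 20 fragments, petal was higher throughout in 26.8% and leaf throughout in 22.0%, and the 7 and 6 of 20 lie near those shares. With petal 2 left out the receptors' counts were 11 higher in petal and 7 in leaf (42.9% and 29.2% of the 1211 contigs), and with petal 1 left out they were 8 and 9 (39.8% and 30.5%). The median log2 difference, taken as petal minus leaf in log2(FPKM + 1), was 0.16 over the 20 receptors and 0.13 over the 1211 contigs. Single receptors ranged from -1.74 to 2.87. The 2 libraries of a tissue lay more than 1 log2 unit apart for 5 of the 20 in leaf and for 6 in petal. A contig with few fragments reaches 20 through the libraries where it is high, so these counts describe the 20 and do not extend to the other 120.

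**Figure D2:**
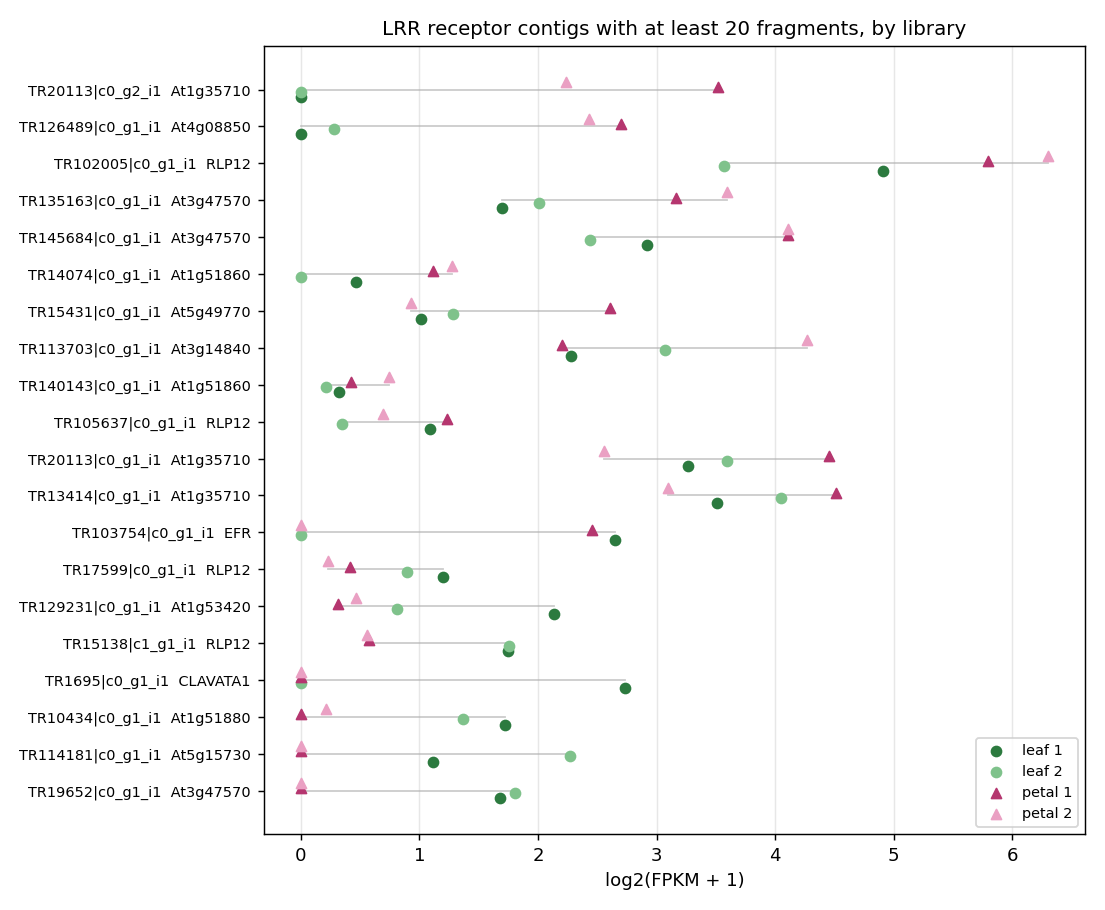
The 20 LRR receptor contigs with at least 20 fragments, ordered by log2 difference, with log2(FPKM + 1) per library on the x axis (circles leaf, triangles petal, the grey line from lowest to highest). Triangles lie to the right of both circles in 7 rows and to the left of both in 6, and in the row of EFR the libraries numbered 1 stand apart from those numbered 2.

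Among receptors higher in both petal libraries, the most abundant hit receptor-like protein 12, an LRR protein without a kinase. TR102005|c0_g1_i1 (347 nt) was at 29.0 FPKM in leaf 1 and 10.9 in leaf 2, against 54.5 in petal 1 and 78.0 in petal 2, on 36, 10, 65 and 115 fragments. Petal was at 66.3 ± 16.6 FPKM and leaf at 19.97 ± 12.8 FPKM (SD, n = 2 each), a 3.32-fold difference (log2 difference 1.81, SE 0.66, limma adjusted p = 0.297 in the fragment fit). The tissues did not overlap, but the leaf libraries differed by more than 1 log2 unit, and the fold was 6.08 without leaf 1, 2.28 without leaf 2 and 2.73 without petal 2.

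A kinase named At4g08850 was found almost in petal alone. It is known in Arabidopsis as MIK2, a receptor that takes part in the perception of small secreted peptides and of a fungal elicitor. TR126489|c0_g1_i1 (1013 nt) was listed at 0 in leaf 1, at 0.21 FPKM in leaf 2, 5.50 in petal 1 and 4.39 in petal 2, on 0, 3, 74 and 75 fragments. Both petal libraries were alike and leaf had next to nothing. With fragments pooled per tissue the rate was 53.0-fold higher in petal, with a 95% exact interval of 17.8 to 260.1 for counting error (log2 difference 2.43, SE 0.49, limma adjusted p = 0.227). As a ratio of mean FPKM the difference was 47.1-fold, and 23.5-fold without leaf 1. Without leaf 2 the remaining leaf library was at 0 and gave no ratio. A shorter contig with the same hit gene, TR144299|c0_g1_i1 (313 nt), was also found in petal alone, on 1 and 6 fragments. The other contigs named At4g08850 hit other genes and did not share this pattern. One of them, TR135201|c0_g1_i1 (356 nt), held 4.97 and 5.75 FPKM in leaf 1 and leaf 2 but 0 and 3.02 in petal 1 and petal 2, on 18 fragments.

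Contigs named At3g47570, a kinase of the same LRR subfamily as FLS2 and EFR, were found on both sides. TR145684|c0_g1_i1 (428 nt, e-value 3e-166) held 6.55 and 4.41 FPKM in leaf 1 and leaf 2 but 16.2 and 16.3 in petal 1 and petal 2, on 125 fragments. Petal was 2.97-fold higher (log2 difference 1.43, SE 0.53, limma adjusted p = 0.2998). TR135163|c0_g1_i1 (326 nt), with the same hit gene, held 2.25 and 3.02 FPKM in leaf but 7.94 and 11.1 in petal, a 3.61-fold difference on 23 fragments. The other 4 contigs on that gene held 1 to 14 fragments each, and the longest of them, TR16679|c0_g1_i1 (548 nt), held 1.29 and 0.43 FPKM in leaf against 0.21 and 0.49 in petal. On another hit gene, TR19652|c0_g1_i1 (537 nt) held 2.20 and 2.49 FPKM in leaf, with both petal libraries at 0, on 13 and 11 fragments. With petal set to a floor of 3 fragments in its 2 libraries together, leaf was 8.14-fold higher (log2 difference -1.74, SE 0.39, limma adjusted p = 0.227). This fold leaves out the counting error of the leaf value. TR19652|c0_g1_i1 had the lowest log2 difference of the 20. Of the 21 contigs named At3g47570, 3 were found in both leaf libraries alone, 1 in both petal libraries alone and 3 in all 4 libraries.

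The name At1g35710, a close relative of MIK2 in Arabidopsis, covered 3 of the 12 receptors with the highest mean FPKM. These 3 contigs hit a single strawberry gene. TR13414|c0_g1_i1 (372 nt) was at 10.4, 15.6, 21.9 and 7.53 FPKM and TR20113|c0_g1_i1 (398 nt) at 8.61, 11.1, 20.9 and 4.90 FPKM in leaf 1, leaf 2, petal 1 and petal 2. In both contigs petal 1 was the highest library and petal 2 the lowest, and the tissues overlapped (log2 difference 0.03, SE 0.73 and 0.08, SE 0.85). Their sign turned under other scalings of the libraries. TR20113|c0_g2_i1 (385 nt), of the same Trinity component, was at 0 in both leaf libraries and at 10.4 and 3.70 FPKM in petal 1 and petal 2, on 19 and 8.4 fragments. By the same floor it was 8.28-fold higher in petal. Its log2 difference of 2.87 (SE 0.66, limma adjusted p = 0.229) was the highest of the 20, and it was 2.23 without petal 1. Reads can be shared between contigs of a component, and the petal 2 fragments of TR20113|c0_g2_i1 and TR20113|c0_g1_i1 (8.4 and 12.6) were not whole numbers. All 5 contigs on that hit gene held 41, 40, 98 and 36 fragments in leaf 1, leaf 2, petal 1 and petal 2. Their summed FPKM was 20.12, 27.15, 53.73 and 16.13 in that order. The hit gene was thus not at 0 in leaf, petal 2 was its lowest library, and the tissues overlapped. Of the 14 contigs named At1g35710, 5 were at 0 in all 4 libraries.

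The kinase At1g51860, which carries a malectin-like domain beside its repeats, had 2 contigs on a single hit gene, and both were higher in petal. TR14074|c0_g1_i1 (708 nt) held 0.38 and 0 FPKM in leaf 1 and leaf 2 but 1.16 and 1.42 in petal 1 and petal 2 (log2 difference 0.96, SE 0.38, limma adjusted p = 0.311). TR140143|c0_g1_i1 (921 nt) held 0.25 and 0.16 FPKM in leaf but 0.34 and 0.67 in petal. The second difference rests on 6 fragments in leaf and 14 in petal.

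Receptors higher in both leaf libraries were led by the longest contig, which also hit receptor-like protein 12. TR15138|c1_g1_i1 (2168 nt) held 2.35 and 2.38 FPKM in leaf 1 and leaf 2 but 0.49 and 0.47 in petal 1 and petal 2, on 116, 89, 17 and 21 fragments, the most of any receptor. Its 2 libraries of a tissue were nearly equal, and leaf was 4.93-fold higher (log2 difference -1.19, SE 0.44, limma adjusted p = 0.302). TR17599|c0_g1_i1 (779 nt), also a receptor-like protein 12, held 1.29 and 0.86 FPKM in leaf but 0.33 and 0.17 in petal, and leaf was 4.30-fold higher on 29 fragments. TR105637|c0_g1_i1 (1044 nt) overlapped between tissues, at 1.13, 0.27, 1.35 and 0.62 FPKM in leaf 1, leaf 2, petal 1 and petal 2. The 4 contigs of this name with at least 20 fragments thus held 1 higher in petal, 2 higher in leaf and 1 that overlapped, and they hit different genes. A short one among the 12 highest means, TR122364|c0_g1_i1 (301 nt), was at 1.79, 4.75, 3.52 and 11.6 FPKM in that order on 13 fragments.

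A kinase named At5g15730, which in Arabidopsis is a calmodulin-regulated receptor-like kinase (CRLK2), was found in leaf alone in its main contig. It is in the list because the hit text calls it a leucine-rich repeat receptor, and whether it holds such repeats was not checked. TR114181|c0_g1_i1 (867 nt) held 1.16 and 3.82 FPKM in leaf 1 and leaf 2, with both petal libraries at 0, on 17 and 42 fragments. By the floor it was 20.2-fold higher in leaf (log2 difference -1.69, SE 0.56, limma adjusted p = 0.293). The log2 difference was -1.11 without leaf 2. A second contig of the same Trinity component and hit gene, TR114181|c0_g2_i1 (861 nt), was listed in leaf 2 and petal 2. Leaf 2 held 0.69 FPKM and petal 2 held 0.37 FPKM, on 7.6 and 5 fragments, with leaf 1 and petal 1 at 0. Reads can be shared between contigs of a component, and the leaf 2 fragments of both contigs (42.4 and 7.6) were not whole numbers. Together the contigs held 17, 50, 0 and 5 fragments in leaf 1, leaf 2, petal 1 and petal 2. The hit gene was thus not at 0 in petal 2.

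TR10434|c0_g1_i1 (820 nt), named At1g51880, a kinase with a malectin-like domain, held 2.30 and 1.58 FPKM in leaf 1 and leaf 2 but 0 and 0.16 in petal 1 and petal 2. Pooled per tissue the rate was 22.3-fold higher in leaf, with a 95% exact interval of 5.84 to 190 (log2 difference -1.44, SE 0.40, limma adjusted p = 0.263). As a ratio of mean FPKM it was 24.2-fold, and 12.1-fold without petal 1, while without petal 2 the remaining petal library was at 0. A second contig on the same hit gene, TR126926|c0_g1_i1 (512 nt), was found in leaf 1 alone, at 1.33 FPKM on 7 fragments. Together the 2 contigs held 38, 16, 0 and 2 fragments in leaf 1, leaf 2, petal 1 and petal 2. TR129231|c0_g1_i1 (515 nt), named At1g53420, held 3.38 and 0.75 FPKM in leaf but 0.24 and 0.38 in petal. Its pooled rate was 7.14-fold higher in leaf (interval 2.13 to 37.4), but 18 of its 24 fragments lay in leaf 1, and without leaf 1 the ratio of mean FPKM was 2.42. A pair of contigs on the gene of At5g06940, annotated as probably an inactive kinase, was found in both leaf libraries and in neither petal library. TR14654|c0_g1_i1 (603 nt) had 6 and 6 fragments and TR136179|c0_g1_i1 (360 nt) had 5 and 2.

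**Figure D3:**
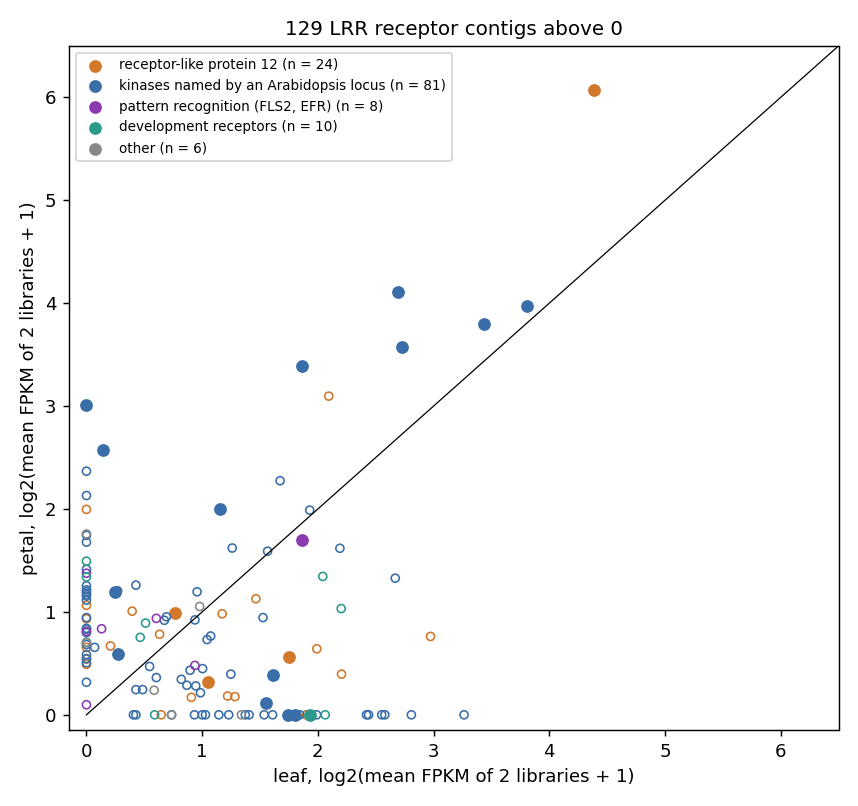
Mean FPKM of the 2 petal libraries (y axis) against the mean of the 2 leaf libraries (x axis), both as log2(mean FPKM + 1), for the 129 LRR receptor contigs above 0 (filled with at least 20 fragments, open with fewer, colour by role, black line of equality). TR102005|c0_g1_i1 stands alone at the top with 19.97 FPKM in leaf and 66.3 in petal, and many open points lie on an axis, at 0 in both libraries of a tissue.

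A kinase named At5g49770 and one named At3g14840 stood out in a single petal library. TR15431|c0_g1_i1 (902 nt, At5g49770) was at 5.09 FPKM in petal 1 and at 0.90 to 1.44 FPKM in the other 3 libraries, with 58.1 of its 104 fragments in petal 1. The name At3g14840 is that of LIK1 in Arabidopsis, which binds the chitin receptor CERK1. TR113703|c0_g1_i1 (376 nt) was at 18.3 FPKM in petal 2, the library with the grey mould hits, and at 3.84, 7.42 and 3.60 FPKM in leaf 1, leaf 2 and petal 1. The petal libraries of this contig were at 10.9 ± 10.4 FPKM and the tissues overlapped (SD, n = 2, limma adjusted p = 0.807). Without petal 2 its log2 difference turned to -0.47. The other 6 contigs named At3g14840 were at 0 in petal 2. The part of the grey mould in this value was not tested.

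Contigs named after receptors of microbial patterns were few, and low like the receptors in general. Of these 8 contigs, 1 had at least 20 fragments, against 14.3% of all 140 receptors. What they bind was not tested. FLS2 binds bacterial flagellin and EFR, known from Brassicaceae, binds the elongation factor EF-Tu. Their 8 contigs hit 8 genes and held 22, 12, 25 and 18 fragments in leaf 1, leaf 2, petal 1 and petal 2. The EFR contig TR103754|c0_g1_i1 (457 nt) was at 5.27 FPKM in leaf 1 and 4.48 in petal 1, on 20 and 14 fragments, and at 0 in leaf 2 and petal 2. Another EFR contig on a different gene, TR13079|c0_g2_i1 (509 nt), had the reverse pattern, at 0 in leaf 1 and petal 1, 1.04 FPKM in leaf 2 and 1.83 FPKM in petal 2. The largest FLS2 contig, TR109126|c0_g1_i1 (581 nt), was at 0, 0.19, 0.55 and 1.02 FPKM in leaf 1, leaf 2, petal 1 and petal 2, on 11 fragments.

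Receptors of development comprised 10 contigs on 5 hit genes. CLAVATA1 restrains the stem cells of the shoot and floral meristem. Its 3 contigs, all on a single hit gene, were found in leaf 1 alone, with 84 fragments in leaf 1 and 0 in the other 3 libraries. TR1695|c0_g1_i1 (723 nt) was at 5.64 FPKM there on 61 fragments, TR1695|c0_g2_i1 (969 nt) at 1.01 FPKM on 18 and TR105906|c0_g1_i1 (319 nt) at 6.36 FPKM on 5. The matches were weak, with e-values of 7e-08, 9e-08 and 3e-08, so the name is uncertain for all 3. With leaf 1 left out nothing remained of the difference. GSO2, a receptor that acts with GSO1 in forming the cuticle of the Arabidopsis embryo, had 2 contigs on a single hit gene, and both were found in leaf 1 and petal 1 alone. TR102716|c0_g1_i1 (362 nt) held 7.20 and 2.09 FPKM there on 11 and 3 fragments, and TR100623|c0_g1_i1 (308 nt) at 6.24 and 3.08 FPKM on 4 and 2. EXS, which sets the fate of anther cells, had 3 contigs and was found in all 4 libraries through TR19126|c0_g1_i1 (693 nt), at 0.10, 0.66, 0.53 and 0.84 FPKM on 18 fragments. Of the other receptors, CLAVATA2, the kinase-lacking partner in the CLAVATA pathway, was found in petal alone. TR116218|c0_g1_i1 (465 nt) held 3.06 and 1.70 FPKM in petal 1 and petal 2, on 10 and 7 fragments, 5.55-fold above the floor of the leaf pair.

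Many receptors were found in some libraries and not in others, and the split ran by library number as well as by tissue. Of the 129 contigs above 0, 18 were found in all 4 libraries, 46 in 1 and 48 in exactly 2. Of these 48, 19 were found in both libraries of a tissue (10 in leaf, 9 in petal), 19 in the libraries of the same number (11 in leaf 1 and petal 1, 8 in leaf 2 and petal 2) and 10 in the remaining pairs. With at least 10 fragments in all, 14 contigs were found in exactly 2 libraries. For 7 these were the libraries of a tissue, for 7 those of the same number and for 0 a remaining pair. With at least 5 fragments the counts were 18, 15 and 7, and with at least 20 fragments they were 3, 1 and 0. All plant-hit contigs of at least 300 nt and at least 10 fragments had the same feature, with 37.4% of 618 in both libraries of a tissue, 58.6% in the same number and 4.05% in a remaining pair. With at least 1 fragment these shares were 39.5%, 47.5% and 13.0% of 1749. With at least 5 fragments they were 39.9%, 50.4% and 9.67% of 1231, and with at least 20 they were 37.6%, 60.5% and 1.93% of 311. The pattern is thus not particular to receptors. The contigs found in leaf 1 and petal 1 alone included TR103754|c0_g1_i1 (EFR), TR102716|c0_g1_i1 (GSO2), TR139246|c0_g1_i1 (At4g08850, 4.38 and 7.68 FPKM, 6 and 10 fragments) and TR119552|c0_g1_i1 (At4g08850, 7.13 and 4.14 FPKM, 7 and 4 fragments). Those found in leaf 2 and petal 2 alone included TR136483|c0_g1_i1 (At4g08850, 1.85 and 0.43 FPKM), TR13079|c0_g2_i1 (EFR), TR114181|c0_g2_i1 (At5g15730) and the short TR102593|c0_g1_i1 (receptor-like protein 12, 303 nt, 13.7 and 1.39 FPKM on 6 and 1 fragments). The labels do not say whether a number stands for a plant, and what the libraries of a number share was not tested.

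**Figure D4:**
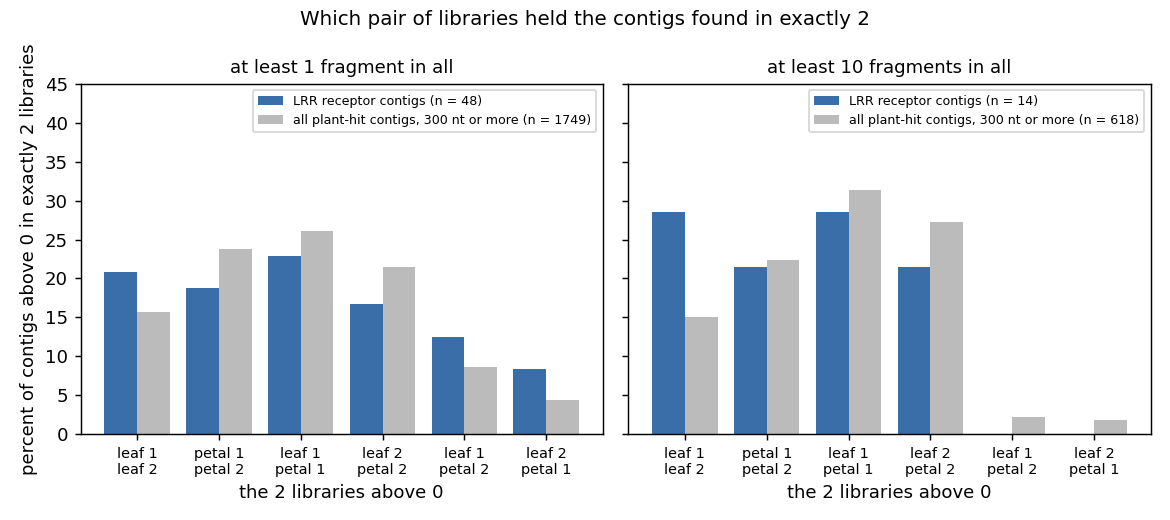
Contigs found in exactly 2 libraries, by which 2 (x axis), as a percent of all such contigs (y axis), for LRR receptors (blue) and all plant-hit contigs of at least 300 nt (grey), with at least 1 fragment (left) or 10 fragments (right) over the 4 libraries. At 10 fragments, 7 of the 14 receptors fall on libraries of the same number and 7 on libraries of the same tissue, and none on the remaining pairs.

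Contigs with few fragments can enter the list of highest mean FPKM through length alone. TR1673|c0_g1_i1 (303 nt), a locus kinase, was at 17.2 FPKM in leaf 1 and at 0 in the other 3 libraries, on 10 fragments. Among the 120 receptors with fewer than 20 fragments, a value of 0 in a library was not a sign of absence, since 3 fragments are within the limit that a count of 0 allows.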

How the data were processed

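After joint assembly of all reads with Trinity, the authors searched the contigs against nucleotide and protein databases and estimated abundance by RSEM and bowtie (versions not given in the sources used here). Deposited FPKM have 2 decimals. The table analysed here is part of the assembly, and no genome or contig sequence was used.

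Members were taken by annotation alone, but the rule, the fragment filter and the lists were set with earlier results of these data known. Fragments per value were rebuilt from the steps of FPKM at each contig length, and 98.8% to 98.9% of low values (at most 10 fragments, contigs under 500 nt, at least 0.3 FPKM) came within 0.1 of a whole number. On longer contigs the 2 decimals limit them. Because FPKM are not counts, petal and leaf were compared in R 4.3.3 by limma 3.58.1 on log2(FPKM + 1), letting the prior variance follow the mean, tissue as the only term, two-sided, with Benjamini-Hochberg adjustment over all contigs tested. This was done once over contigs with mean and SD of 10 FPKM or more, a filter the authors state for clustering and not for their edgeR comparison, and once over plant-hit contigs with at least 20 fragments. Folds are ratios of mean FPKM, or ratios to a floor of 3 fragments over a tissue's libraries. Folds against the floor leave out the counting error of the higher tissue. Fold changes on the log2(FPKM + 1) scale understate those of low contigs. The fragment steps and the limma fit without voom were also run on simulated data. For the fit, those data had a set spread between libraries and no effect of the library number. They do not show how the fit behaves at the spread seen here. Alternatives were pseudocounts of 0.1 and 10, 2 rescalings, other filters and priors, limma-voom, a block on the number and leaving out each library. Sums were compared by exact permutation (scipy 1.17.1).

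Named were any called receptor, the 12 highest mean FPKM, the 6 largest log2 differences in each direction among receptors with at least 20 fragments and no overlap, the highest of each role, and those with at least 20 fragments at 0 in a tissue. Other contigs were named after their values were seen. Roles in Arabidopsis are background.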

Additional observations from a re-analysis of the deposited data

How the results depend on the processing

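No receptor was called in either fit in any alternative but one. With a block on the replicate number, the fit with the FPKM filter called 1 receptor, TR102005|c0_g1_i1 (log2 difference 1.81, limma adjusted p = 0.0383), and 51 transcripts in place of 24. With at least 20 fragments the block called 0 receptors and 5 contigs in place of 1. Deviations of libraries with the same number correlated across transcripts at r = 0.04 in the first fit and 0.50 in the second. With 2 pairs and no label of a shared plant, the numbers were not taken as pairs. The FPKM filter gave 112 calls by limma-voom, 0 with a prior without a trend, 10 with an equal sum of FPKM, 9 for means of 1 FPKM or more and 3 with no filter. Leaving out a library gave 305 to 810.

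The counts higher in petal and in leaf were 3 and 2 of 11 with at least 50 fragments (30.5% and 23.2% of all plant-hit contigs passing it) and 17 and 21 of 129 with no filter (12.2% and 10.5%). With a library left out they were 7 to 11 in petal (33.3% to 42.9%) and 6 to 9 in leaf (29.2% to 33.9%). The median log2 difference was 0.33 with a pseudocount of 0.1, 0.046 with 10, 0.0049 with equal fragments on plant-hit contigs, -0.052 with an equal sum of FPKM and -0.010 with no filter. It was -0.46 to 0.63 with a library left out. The ratio of summed FPKM was 1.02 with equal fragments on plant-hit contigs, 0.843 with an equal sum and 1.004 to 1.37 with a library left out. Of the 20 receptors, log2 differences turned for TR20113|c0_g1_i1 (-0.13 with equal plant-hit fragments, -0.42 with an equal sum, -0.87 to 1.03 with a library left out), TR13414|c0_g1_i1 (-0.19, -0.51, and -0.69 to 0.74), TR113703|c0_g1_i1 (-0.013 with an equal sum, -0.47 to 1.60 with a library left out), TR103754|c0_g1_i1 (-1.42 to 1.23 with a library left out), TR15431|c0_g1_i1 (-0.22 without petal 1) and TR105637|c0_g1_i1 (-0.13 without leaf 2, -0.02 without petal 1). The cause was not tested.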
